A study of Arabidopsis thaliana with 12 samples.

Results

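Indolic glucosinolates are sulfur-rich defence compounds that Arabidopsis makes from tryptophan, and 10 genes of their synthesis are described here gene by gene. They were taken by name and locus from the 23739 genes of the count table: the regulators MYB34 (AT5G60890), MYB51 (AT1G18570) and MYB122 (AT1G74080), the core enzymes CYP79B2 (AT4G39950), CYP79B3 (AT2G22330) and CYP83B1 (AT4G31500), and the ring-modifying enzymes CYP81F2 (AT5G57220), IGMT1 (AT1G21100), IGMT2 (AT1G21120) and IGMT5 (AT1G76790). All 10 had a row in the table and passed the filter on low counts. Poly(A) RNA was sequenced from whole 10-day-old seedlings of the wild type Col-0 and of the ate1-2 ate2-1 mutant in the same ecotype (a1a2). ATE1 and ATE2 encode the arginyl transferases of the Arg/N-degron pathway, which marks proteins for degradation. Seedlings of each genotype received water (mock) or 1 µM flg22, a peptide of bacterial flagellin that triggers pattern-triggered immunity (PTI), for 1 h. Each of the 4 groups had 3 biological replicates, and each replicate was a pool of seedlings from 2 wells grown in continuous light, so neither single plants nor organs were resolved. Levels are given as CPM, a gene's counts relative to the total of its library, with library sizes corrected by TMM (trimmed mean of M-values), for replicates 1, 2 and 3 in that order.

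In this pathway, CYP79B2 and CYP79B3 turn tryptophan into indole-3-acetaldoxime, a branch point that also leads to the phytoalexin camalexin and to auxin. CYP83B1 commits the aldoxime to glucosinolates, and later core enzymes add the sulfur, glucose and sulfate groups. CYP81F enzymes then hydroxylate the indole ring, and indole glucosinolate O-methyltransferases (IGMTs) methylate the new hydroxyl group. CYP81F2 with IGMT1 or IGMT2 gives 4-methoxy-indol-3-ylmethyl glucosinolate, which the myrosinase PEN2 activates in defence against fungi and in callose deposition. CYP81F4 with IGMT5 leads instead to the isomer that carries the methoxy group on the indole nitrogen. MYB34, MYB51 and MYB122 are R2R3-MYB transcription factors that activate the pathway, MYB51 mainly in shoots and MYB34 mainly in roots.

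The libraries held 20285662 to 22433536 counts each. The mutated genes followed the labels: ATE1 ranged over 20.7 to 28.4 CPM in the Col-0 libraries against 2.19 to 4.22 in those of a1a2, and ATE2 over 4.68 to 6.73 against 0.148 to 0.513, both called lower in the mutant in both treatments. Markers of shoots (5 genes) summed to 24300 to 49340 CPM per library and markers of root hairs and endodermis (5 genes) to 50.8 to 110.6 CPM, so both organs were present. None of these 10 markers was called in any comparison. Transcripts of the seed storage gene CRA1 were at 0 to 0.257 CPM in the Col-0 libraries and reached up to 9.85 CPM in a1a2, without a call (adjusted p = 0.481 in mock-treated and 0.937 in flg22-treated seedlings, edgeR). FRK1, a widely used marker of PTI, had a log2 fold change of 3.15 after flg22 in Col-0 and was not called (adjusted p = 0.0877), its mock-treated libraries ranging over 0.929 to 9.26 CPM and its treated ones over 11.4 to 89.1 CPM. In a pool of whole seedlings, fewer cells of a type and less RNA per cell cannot be told apart.

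To follow the pathway after flg22, treated and mock-treated seedlings were compared in each genotype. Most of the pathway genes rose, IGMT2 and CYP81F2 most of all. In Col-0, IGMT2 rose 216.5-fold, CYP81F2 106-fold, MYB51 31.5-fold and IGMT1 13.97-fold, while MYB122, CYP79B2 and CYP83B1 rose 7.44-, 2.64- and 2.59-fold. The folds of IGMT1 and IGMT2 are uncertain, because they share reads with IGMT3 and IGMT4, as described below. MYB34 fell, and CYP79B3 and IGMT5 were not called. A gene was called when its Benjamini-Hochberg adjusted p over all tested genes was under 0.05 and its change over 1.5-fold in edgeR's quasi-likelihood test. By this rule 7 of the 10 genes rose and 1 fell in Col-0, where 21.0% of the 20439 tested genes were called, 13.9% higher and 7.06% lower. The same 8 genes were called in the same directions in a1a2, against 21.2% of all tested genes, 13.9% higher and 7.29% lower. The median log2 fold change of the 10 genes was 2.15 in Col-0 and 2.54 in a1a2, and that of all tested genes was near 0 (-0.01 in Col-0). The 2 comparisons use separate libraries but 1 estimate of the spread. Scaled to library size alone, the median of all genes moved to -0.26 in Col-0, and 2243 genes rose and 3344 fell there, against 2843 and 1444 with TMM, while the same 8 pathway genes were called.

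**Figure D1:**
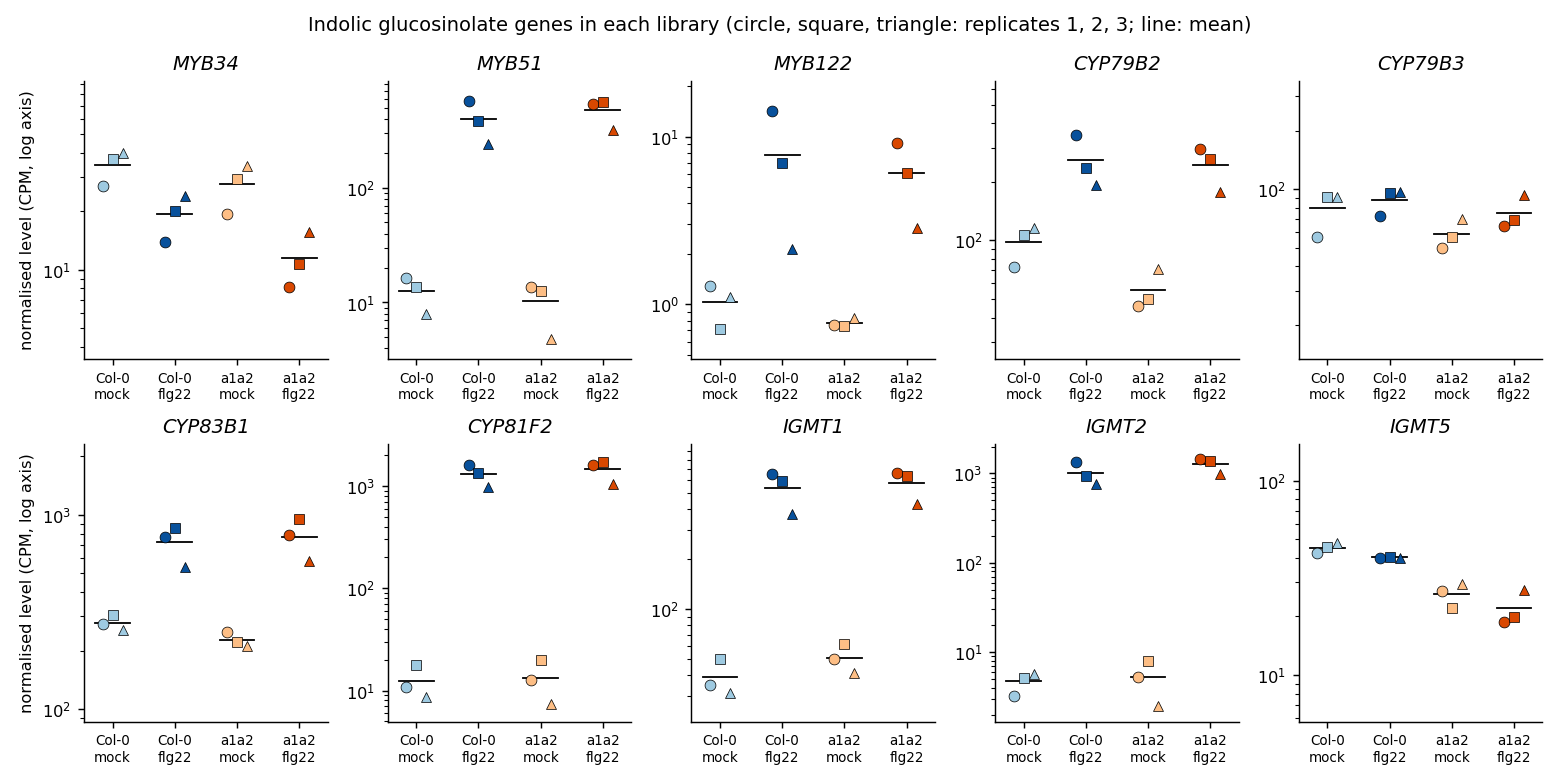
Levels of the 10 genes in each library, in CPM on a log axis, by genotype and treatment; circles, squares and triangles are replicates 1, 2 and 3, and lines are group means. The flg22-treated libraries lie above all mock-treated libraries for MYB51, CYP79B2, CYP83B1, CYP81F2, IGMT1, IGMT2 and MYB122, with replicate 3 the lowest after flg22 for each of these genes in both genotypes.

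The promoters of the 4 genes with the largest rises are shown because, of the 10 genes, only these held the core of the W-box, TTGAC, in the 250 bases before the annotated start. WRKY transcription factors, many of which act in immunity, bind the W-box. Sequences are from the RefSeq assembly TAIR10.1, 5′ to 3′ on the strand of the gene, and capitals mark TTGAC or its reverse complement. They lie at chr1:6389149-6389398 (plus strand), chr5:23187590-23187839 (plus strand), chr1:7388513-7388762 (minus strand) and chr1:7396824-7397073 (minus strand).
MYB51: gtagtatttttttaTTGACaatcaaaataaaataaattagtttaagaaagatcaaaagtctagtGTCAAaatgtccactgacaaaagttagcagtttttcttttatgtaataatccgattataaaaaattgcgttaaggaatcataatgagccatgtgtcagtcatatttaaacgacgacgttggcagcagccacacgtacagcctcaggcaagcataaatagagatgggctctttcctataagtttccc
CYP81F2: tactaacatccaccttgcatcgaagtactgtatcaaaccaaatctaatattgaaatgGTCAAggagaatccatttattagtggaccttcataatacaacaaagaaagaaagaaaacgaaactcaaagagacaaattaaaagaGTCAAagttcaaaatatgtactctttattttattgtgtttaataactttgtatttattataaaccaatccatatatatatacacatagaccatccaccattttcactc
IGMT1: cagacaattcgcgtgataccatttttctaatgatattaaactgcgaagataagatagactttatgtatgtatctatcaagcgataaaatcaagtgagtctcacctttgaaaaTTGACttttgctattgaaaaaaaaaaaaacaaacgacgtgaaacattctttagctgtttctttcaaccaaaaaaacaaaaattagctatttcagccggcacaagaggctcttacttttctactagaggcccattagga
IGMT2: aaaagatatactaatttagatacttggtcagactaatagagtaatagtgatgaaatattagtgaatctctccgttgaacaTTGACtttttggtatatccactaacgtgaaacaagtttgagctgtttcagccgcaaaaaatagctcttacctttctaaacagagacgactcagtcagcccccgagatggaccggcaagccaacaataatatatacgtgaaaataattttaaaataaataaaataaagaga
Counted from the start, MYB51 held a core on each strand, at -236 to -232 and at -186 to -182, and CYP81F2 held 2 on the opposite strand, at -193 to -189 and at -108 to -104. IGMT1 and IGMT2 held 1 each on the strand of the gene, at -138 to -134 and at -170 to -166, in each case followed by a run of T. The core was common: it occurred in 4 of these 10 promoters and in 45.4% of 23738 promoters of the same length. Over all tested genes, it occurred in 61.7% of the promoters of genes that rose after flg22 in Col-0, in 38.8% of those that fell and in 43.4% of the rest. None of the 10 promoters held the G-box CACGTG (7.00% of all promoters), the site of MYC factors, or the GCC box GCCGCC (1.91%), the site of ERF factors, on either strand, and no motifs overlapped. These matches are a description of the letters only.

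The regulators moved apart. MYB51 (chr1:6389399-6391386, plus strand) was at 16.4, 13.7 and 7.94 CPM in mock-treated and 572, 385 and 244 CPM in flg22-treated Col-0. In a1a2 it was at 13.6, 12.7 and 4.81 CPM in mock and 543, 563 and 319 CPM after flg22. Every flg22-treated library lay above every mock-treated one. The log2 fold change was 4.98 ± 0.49 (SE; adjusted p = 1.61e-05) in Col-0 and 5.51 ± 0.51 (SE; adjusted p = 8.01e-06) in a1a2.

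MYB122, a close relative of MYB51 with 73.1% identical coding bases, was the least abundant of the 10 genes per kilobase of transcript (chr1:27855578-27857598, plus strand). Its level was 1.29, 0.708 and 1.104 CPM in mock-treated and 14.3, 6.91 and 2.14 CPM in flg22-treated Col-0. In a1a2 the levels were 0.7500, 0.744 and 0.831 CPM in mock and 9.12, 6.100 and 2.86 CPM after flg22. Replicate 3 stood well below the others after flg22 in both genotypes, yet above all mock-treated libraries. The mock levels rest on 16 to 32 counts per library. In edgeR's test the log2 fold change was 2.90 ± 0.63 (SE; adjusted p = 0.00474) in Col-0 and 2.95 ± 0.65 (SE; adjusted p = 0.00515) in a1a2. Without flg22-treated Col-0 replicate 1, the change in Col-0 was 2.06 on the log2 scale and still called (adjusted p = 0.0205).

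MYB34 was the only one of the 10 genes called lower after flg22. Its levels (chr5:24494291-24496371, plus strand) were 27.1, 37.05 and 39.97 CPM in mock-treated and 13.9, 19.96 and 23.9 CPM in flg22-treated Col-0. In a1a2 they were 19.3, 29.1 and 34.3 CPM in mock and 8.11, 10.7 and 15.5 CPM after flg22. The treatments did not overlap within either genotype, and replicate 1 was lowest and replicate 3 highest in each group. Its log2 fold change was -0.85 ± 0.28 (SE; adjusted p = 0.0431) in Col-0 and -1.26 ± 0.29 (SE; adjusted p = 0.00638) in a1a2. Within replicate numbers 1, 2 and 3 the log2 ratios in Col-0 were -0.961, -0.889 and -0.742, and with the replicate number as a block the adjusted p was 8.03e-06. Without the block the call in Col-0 lay close to the threshold. It was lost without mock-treated Col-0 replicate 2 (-0.80, adjusted p = 0.112) or 3 (-0.74, 0.121), flg22-treated Col-0 replicate 1 (-0.71, 0.125) or 2 (-0.88, 0.0936), mock-treated a1a2 replicate 2 (-0.85, 0.0592) or flg22-treated a1a2 replicate 2 (-0.85, 0.0594), and when tested against 1.5-fold itself (adjusted p = 0.378).

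Per kilobase of transcript, the leading regulator changed from MYB34 to MYB51. In Col-0 the mean of MYB51 went from 7.11 to 224 CPM per kilobase and that of MYB34 from 19.5 to 10.8. Shares of 1 sum are tied to each other, so those below mostly restate the rise of MYB51. MYB34 made up 57.3% to 85.7% of the summed CPM per kilobase of the 3 MYB genes in the 6 mock-treated libraries, and 1.45% to 8.86% in the 6 flg22-treated ones. MYB51 made up 11.97% to 40.2% in mock and 90.2% to 96.9% after flg22. The ranges did not overlap for either gene.

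Of the core enzymes, 2 rose and 1 was not called. CYP79B2 (chr4:18525042-18527602, plus strand) was at 73.4, 107 and 115 CPM in mock-treated and 351, 237 and 192 CPM in flg22-treated Col-0. The a1a2 seedlings had 46.2, 49.9 and 71.01 CPM in mock and 294, 264 and 178 CPM after flg22. The treatments did not overlap in either genotype, and replicate 1 changed most in both. Its rise on the log2 scale was 1.40 ± 0.28 (SE; adjusted p = 0.00259) in Col-0 and 2.14 ± 0.28 (SE; adjusted p = 0.000139) in a1a2.

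CYP79B3 catalyses the same step, and its coding sequence is 80.5% identical to that of CYP79B2. The gene (chr2:9488413-9491404, plus strand) was at 56.3, 91.4 and 91.02 CPM in mock-treated and 72.3, 95.7 and 96.3 CPM in flg22-treated Col-0. In a1a2 it was at 49.8, 56.6 and 70.1 CPM in mock and 64.3, 69.5 and 92.9 CPM after flg22. The treatments overlapped in both genotypes, although the log2 ratios within replicate numbers 1, 2 and 3 were all positive. These ratios were 0.359, 0.068 and 0.082 in Col-0 and 0.367, 0.296 and 0.405 in a1a2. CYP79B3 was called in none of the alternative fits, and its log2 fold change in a1a2 stayed under the 1.5-fold threshold in each. Over the edgeR and DESeq2 alternatives its adjusted p in a1a2 went as low as 0.015. Its log2 fold change was 0.15 ± 0.21 (SE; adjusted p = 0.679) in Col-0, with a 95% interval of -0.32 to 0.62, and 0.36 ± 0.22 (SE; adjusted p = 0.26) in a1a2, with an interval of -0.11 to 0.83. Per kilobase, CYP79B2 was at 1.23 to 1.37 times the level of CYP79B3 in mock-treated Col-0 and at 0.925 to 1.06 times in mock-treated a1a2. After flg22 the ratio of these per-kilobase levels ranged from 2.09 to 5.09 in Col-0 libraries and from 2.004 to 4.797 in a1a2 libraries, above every mock-treated library.

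**Figure D2:**
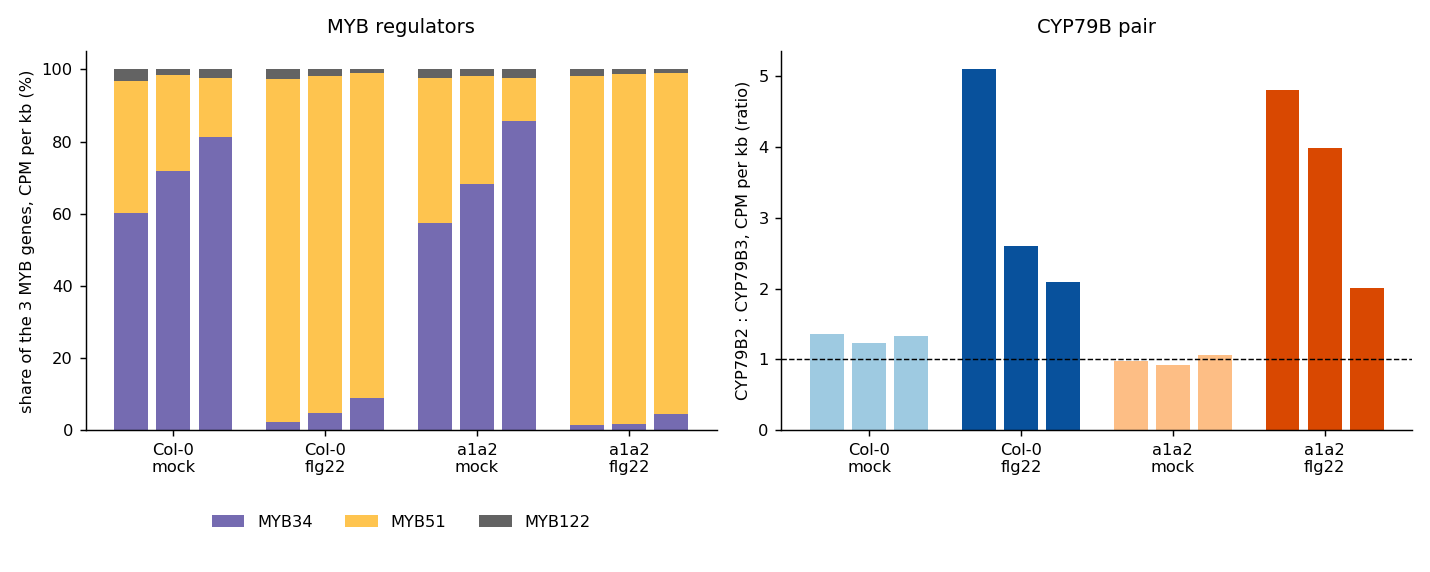
Left, share of MYB34, MYB51 and MYB122 in their summed CPM per kilobase, in percent, with 1 bar per library (replicates 1 to 3 from left to right in each group). Right, ratio of CYP79B2 to CYP79B3 in CPM per kilobase, with a dashed line at 1. MYB51 takes 90.2% to 96.9% after flg22, and the CYP79B ratio is at least 2.004 in every flg22-treated library.

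CYP83B1 (chr4:15273410-15275404, minus strand) was the most abundant of the 10 genes per kilobase in mock-treated seedlings. Its level was 274, 305 and 257 CPM in mock-treated and 768, 859 and 537 CPM in flg22-treated Col-0. For a1a2 the levels were 249, 221 and 211 CPM in mock and 784, 950.1 and 578 CPM after flg22. No treated library overlapped a mock-treated one. The log2 rise was 1.37 ± 0.21 (SE; adjusted p = 0.000385) in Col-0 and 1.76 ± 0.21 (SE; adjusted p = 5.76e-05) in a1a2.

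The ring-modifying enzymes split into 3 that rose strongly and 1 that was not called. CYP81F2 (chr5:23187840-23189902, plus strand) was at 10.8, 17.7 and 8.66 CPM in mock-treated and 1612, 1347 and 980.0 CPM in flg22-treated Col-0. In a1a2 it was at 12.7, 20.01 and 7.43 CPM in mock and 1609, 1724 and 1041 CPM after flg22. Even the lowest treated library was far above the highest mock-treated one. The log2 fold change was 6.73 ± 0.46 (SE; adjusted p = 7.32e-07) in Col-0 and 6.77 ± 0.46 (SE; adjusted p = 6.37e-07) in a1a2.

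IGMT1 (chr1:7386762-7388512, minus strand) was at 34.9, 50.1 and 31.3 CPM in mock-treated and 657, 592 and 378 CPM in flg22-treated Col-0. In the mutant it was at 49.7, 61.5 and 41.4 CPM in mock and 664, 639 and 433 CPM after flg22. Treated and mock-treated libraries were far apart in both genotypes. On the log2 scale the rise was 3.80 ± 0.29 (SE; adjusted p = 1.52e-06) in Col-0 and 3.51 ± 0.28 (SE; adjusted p = 2.34e-06) in a1a2.

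IGMT2, a neighbour of IGMT1 on chromosome 1 (chr1:7395179-7396823, minus strand), had the largest rise of the 10. It was at 3.19, 5.13 and 5.73 CPM in mock-treated and 1332, 942 and 771 CPM in flg22-treated Col-0. In a1a2 it was at 5.33, 7.97 and 2.49 CPM in mock and 1433, 1386 and 974 CPM after flg22. The treated libraries did not come near the mock-treated ones in either genotype. The log2 fold change was 7.76 ± 0.47 (SE; adjusted p = 2.99e-07) in Col-0 and 7.91 ± 0.48 (SE; adjusted p = 2.22e-07) in a1a2.

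Values of IGMT1 and IGMT2 are uncertain because they share reads with their neighbours IGMT3 and IGMT4. Their counts held fractions in all 12 libraries, as when reads are divided between genes. The coding sequences of IGMT2 and IGMT3 are 97.4% identical and those of IGMT1 and IGMT2 92.5% identical. Of all 100-base stretches of the transcript, 21.4% in IGMT2 and 3.46% in IGMT1 occur exactly in another IGMT, and none in the other 8 genes occurs in any other transcript. The 4 genes summed rose as well, with a log2 fold change of 3.92 ± 0.45 (SE) in Col-0 (adjusted p = 5.25e-05) and 4.22 ± 0.46 in a1a2 (adjusted p = 3.04e-05). Per kilobase, IGMT4 made up 55.5% to 79.8% of the 4 in mock and 35.4% to 47.2% after flg22. IGMT2 made up 1.23% to 4.01% in mock and 21.9% to 30.6% after flg22, and neither gene's ranges overlapped between the treatments. These shares carry the same uncertainty of shared reads. The share of IGMT4 fell although IGMT4 itself rose, by 3.19 on the log2 scale in Col-0.

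IGMT5, elsewhere on chromosome 1 (chr1:28822186-28823727, minus strand) and 76.5% to 76.9% identical to the other IGMTs in coding bases, was not called in either genotype. It was at 42.5, 45.4 and 47.5 CPM in mock-treated and 40.04, 40.5 and 40.1 CPM in flg22-treated Col-0. The mutant had 27.04, 22.2 and 29.4 CPM in mock and 18.7, 19.9 and 27.5 CPM after flg22. In Col-0 the treatments did not overlap, by a narrow margin, and in a1a2 they did. The log2 fold change was -0.17 ± 0.14 (SE; adjusted p = 0.451) in Col-0, with a 95% interval of -0.48 to 0.15, and -0.25 ± 0.14 (SE; adjusted p = 0.245) in a1a2, with an interval of -0.57 to 0.07.

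Groups did not overlap between treatments for 9 of the 10 genes in Col-0, the exception being CYP79B3, against 39.39% of all tested genes. In a1a2 they did not overlap for 8 of the 10, the exceptions being CYP79B3 and IGMT5, against 41.91% of all tested genes. The 8 called genes were among those without overlap in each genotype.

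**Figure D3:**
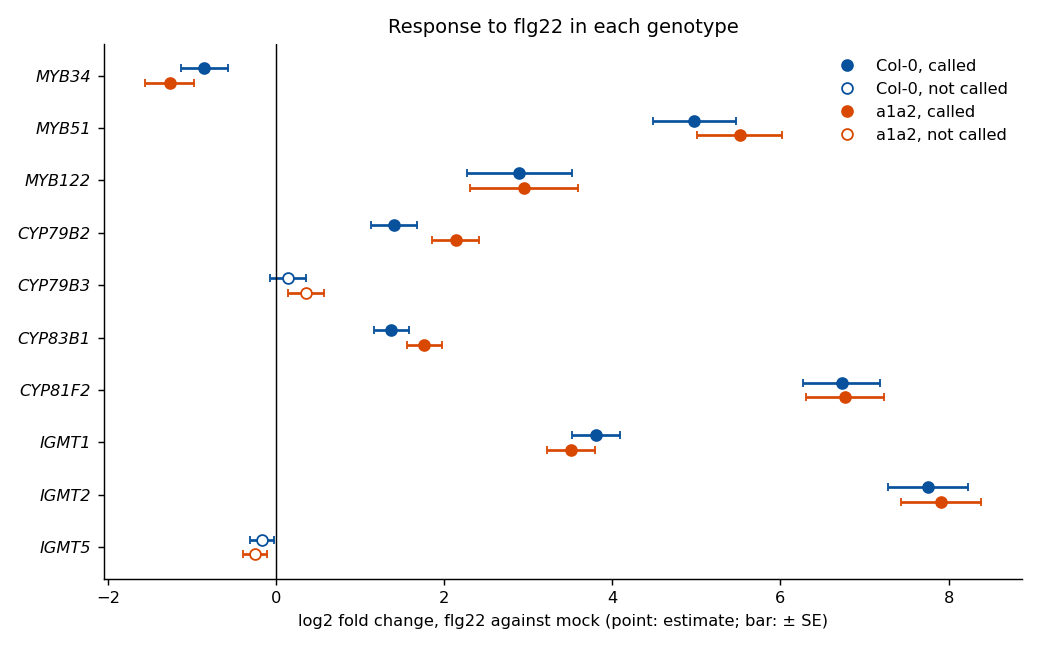
Log2 fold change of flg22 against mock for the 10 genes in Col-0 (blue) and a1a2 (orange), with bars of ± SE from edgeR; filled points were called and open points were not. The estimates of the genotypes lie side by side for each gene, from -0.85 and -1.26 for MYB34 to 7.76 and 7.91 for IGMT2.

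On a scale that allows genes to be set beside each other, CPM per kilobase of the longest annotated transcript, the order in mock-treated Col-0 was led by CYP83B1 at 147 ± 12.8 (SD, n = 3), CYP79B2 at 46.1 ± 10.4, CYP79B3 at 35.5 ± 8.98 and IGMT5 at 32.9 ± 1.84. IGMT1 (25.1 ± 6.44), MYB34 (19.5 ± 3.798), MYB51 (7.11 ± 2.43), CYP81F2 (7.01 ± 2.69), IGMT2 (3.32 ± 0.939) and MYB122 (0.663 ± 0.191) followed. Neighbours in this order overlapped between CYP79B2 and MYB34, and again between MYB51 and CYP81F2, and the other neighbours did not. After flg22 the order of these length-scaled levels in Col-0 was CYP81F2 at 743 ± 179, IGMT2 at 718 ± 203, CYP83B1 at 379.7 ± 87.3, IGMT1 at 351 ± 94.5, MYB51 at 224 ± 92.1 and CYP79B2 at 122 ± 38.2. These were followed by CYP79B3 at 39.3 ± 6.13, IGMT5 at 29.4 ± 0.176, MYB34 at 10.8 ± 2.83 and MYB122 at 4.98 ± 3.92. CYP81F2 overlapped with IGMT2, MYB34 with MYB122, and each neighbour from CYP83B1 to CYP79B2 with the next, while the remaining neighbours did not overlap. CYP81F2 and IGMT2, the last steps of the route to the 4-methoxy compound, thus lay above CYP83B1 in all 3 treated libraries and below it in all 3 mock-treated ones. Among all 23739 genes, ranked by their length-scaled level, CYP81F2 went from rank 10597 to 89 in Col-0 and from 10042 to 83 in a1a2, and IGMT2 from 14370 to 94 and from 13678 to 76.

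The rest of the pathway was read from lists of genes taken from general knowledge of the pathway, with earlier results of these data known. The counts therefore describe the lists and are no independent test. Each count is to be read against the shares of all tested genes. These were 13.9% higher and 7.06% lower in Col-0, and 13.9% higher and 7.29% lower in a1a2. Of 7 other core genes, 3 rose in both genotypes and 4 were not called in either: the peptidase gene GGP1 rose by 2.21 on the log2 scale in Col-0, the sulfotransferase gene SOT16 by 1.34 and the glutathione S-transferase gene GSTF10 by 1.29 (adjusted p = 1.37e-05, 0.000308 and 0.000276, edgeR). The median of the 7 was 0.11 in Col-0. Of 5 other ring-modifying genes, 3 rose in both genotypes, IGMT3 by 5.32, IGMT4 by 3.19 and CYP81F3, whose value was the median of the 5, by 0.73 in Col-0. CYP81F1 and CYP81F4 were not called, with log2 fold changes of 0.25 and 0.01 in Col-0.

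Genes that feed or use the pathway also rose in part. The 2 APS kinase genes on the list, whose enzymes supply activated sulfate, rose (APK2 by 1.23, APK1 by 0.69 on the log2 scale in Col-0). Of 11 genes of tryptophan synthesis, 5 rose and 1 fell in each genotype, against 13.9% of all tested genes higher in each and 7.06% and 7.29% lower. The largest rises were those of ASB1 (2.08) and ASA1 (1.80), the subunits of anthranilate synthase, and TSB1 (1.93), a tryptophan synthase gene, and the gene that fell was PAI3 (-0.62). The values of ASB1, ASA1 and PAI3 are uncertain, since ASB1 and ASA1 had fractional counts and PAI3 has close copies in PAI1 and PAI2, whose counts were fractional too. Of 7 genes of glucosinolate activation and its products, 4 rose in both genotypes: PCS1 by 4.53, the myrosinase gene PEN2 by 3.34, the transporter gene PEN3 by 3.19 and GSTU13 by 1.29 in Col-0, against 13.9% of all tested genes higher in each genotype. The myrosinase genes TGG1 and TGG2 and the root beta-glucosidase gene PYK10 were not called.

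None of 3 glucosinolate transporter genes was called. GTR1 was higher after flg22 by 0.37 on the log2 scale in Col-0 (adjusted p = 0.0377) and by 0.50 in a1a2 (adjusted p = 0.00788, edgeR). Both changes were under 1.5-fold. GTR2 and GTR3 had log2 fold changes of -0.04 to 0.10 in the 2 genotypes. Of 5 other regulators, MYC4 fell by 1.704-fold in Col-0 and by 2.14-fold in a1a2, and MYC2, whose counts were fractional in all 12 libraries, was called higher in Col-0 and not in a1a2 (log2 fold change 0.63, adjusted p = 0.0317; 0.50, adjusted p = 0.0794 in a1a2; interaction adjusted p = 1). Genes of camalexin synthesis rose: CYP71A12 by 4.84, PAD3 by 3.55 and CYP71A13 by 2.61 on the log2 scale in Col-0. CYP71A13, whose counts were fractional in all 12 libraries, was not called in a1a2 (1.20, adjusted p = 0.342; interaction adjusted p = 1). Of 16 genes of the methionine-derived aliphatic glucosinolates, none was called higher, and 3 were called lower in Col-0 and 4 in a1a2. The log2 fold change was negative for 15 of the 16 in each genotype, and the median was -0.71 and -0.85. Of all tested genes, 13.9% rose in each genotype, and 7.06% fell in Col-0 and 7.29% in a1a2. The genes called lower in Col-0 were the regulators of this branch, MYB28 (-1.05), MYB29 (-2.44) and MYB76, for which mock-treated Col-0 libraries held 15 to 25 counts and flg22-treated ones 0 to 1. In a1a2 the same 3 were called lower, MYB76 from 2 to 12 counts to 0 to 1, together with UGT74C1 (-0.89), a glucosyltransferase gene. Most other genes of this list had negative values without a call. The lowest was that of CYP79F1, at -1.55 in Col-0 (adjusted p = 0.132) and -1.72 in a1a2 (adjusted p = 0.099, edgeR), with overlapping treatments.

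**Figure D4:**
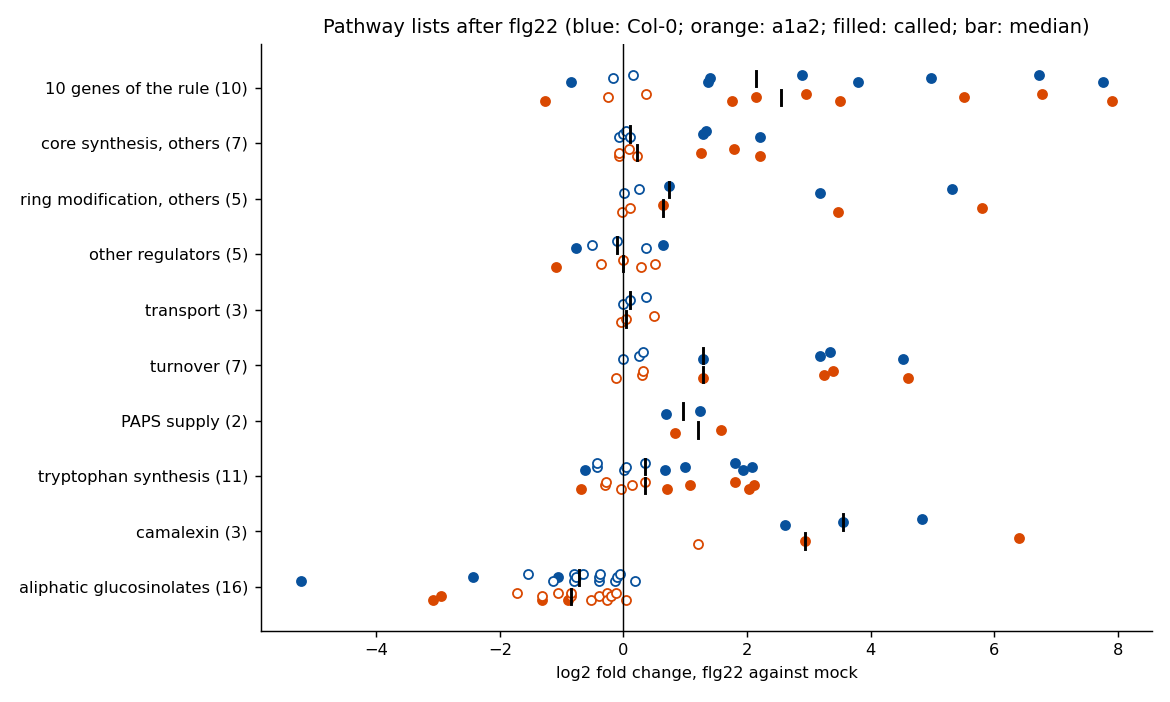
Log2 fold change of flg22 against mock for each gene of the pathway lists (number of tested genes in parentheses), in Col-0 (blue) and a1a2 (orange); filled points were called, open points were not, and black bars are medians. Camalexin genes have the highest median of the lists, 3.55 in Col-0, and the aliphatic genes the lowest, -0.71.

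To determine whether loss of the arginyl transferases altered the pathway, the genotypes were compared within each treatment. IGMT5 had the largest difference relative to its error and was lower in a1a2 in both treatments, but its adjusted p lay at the edge of the threshold and its call depended on the fit. Without a block, 0 of the 10 genes were called in mock, where 0.166% of the tested genes were called, and 0 of the 10 after flg22, where 0.137% were called. At an unadjusted p under 0.05, IGMT5 and CYP79B2 passed in mock and IGMT5 and MYB34 after flg22, 2 of 10 in each case, against 4.60% and 4.65% of all tested genes.

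In mock-treated seedlings, all 3 Col-0 libraries of IGMT5 (42.5, 45.4 and 47.5 CPM) lay above all 3 a1a2 libraries (27.04, 22.2 and 29.4 CPM), and the same held after flg22 (40.04, 40.5 and 40.1 against 18.7, 19.9 and 27.5 CPM). Its level was 1.72-fold lower in mock-treated a1a2, with a log2 fold change of -0.78 ± 0.14 (SE; adjusted p = 0.0873), and 1.825-fold lower after flg22, with -0.87 ± 0.15 (SE; adjusted p = 0.0591). Same-numbered replicates varied together across groups, and with the replicate number as a block IGMT5 was called in both treatments. The blocked log2 fold change was -0.79, adjusted p = 0.00398 in mock, where 0.959% of all tested genes were called, and -0.88, adjusted p = 0.00246 after flg22, where 0.827% were. DESeq2 called it without a block too (adjusted p = 0.000216 and 2.48e-05), against 0.504% and 0.401% of all tested genes. When single libraries were left out of the edgeR fit without a block, IGMT5 was called in 1 of 12 fits in each treatment. That fit left out flg22-treated a1a2 replicate 3, the a1a2 library nearest to Col-0 after flg22. Its log2 fold changes were -0.78 (adjusted p = 0.0178) in mock-treated and -1.06 (adjusted p = 0.008) in flg22-treated seedlings. Over the 12 fits the adjusted p reached 0.409 in mock-treated and 0.34 in flg22-treated seedlings.

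CYP81F4, the hydroxylase that acts before IGMT5, differed in the same direction. It was at 153, 221 and 352 CPM in mock-treated Col-0 and 87.8, 123 and 210.3 CPM in mock-treated a1a2. After flg22 it was at 205, 208 and 319 CPM in Col-0 and 94.2, 97.5 and 220.5 CPM in a1a2. Its levels varied with the replicate number, replicate 3 being highest in each group, so the genotypes overlapped over all libraries although a1a2 was lower within each number. Without a block it was not called, with log2 fold changes of -0.79 ± 0.43 (SE; adjusted p = 1) in mock-treated and -0.83 ± 0.43 (SE; adjusted p = 0.997) in flg22-treated seedlings. With the replicate number as a block it was called in mock-treated (-0.80, adjusted p = 0.0116) and in flg22-treated seedlings (-0.92, adjusted p = 0.00634). Its counts were fractional in 9 libraries. The product of CYP81F4 and IGMT5 is known mainly from roots. Markers of root hairs and endodermis had sums of 51.5 to 110.6 CPM in the mock-treated libraries of Col-0 and 51.8 to 69.5 in those of a1a2, and of 70.5 to 93.5 and 50.8 to 89.95 after flg22. Of these 5 markers, 4 had negative log2 fold changes in mock and 3 after flg22, and their part in the difference of IGMT5 and CYP81F4 was not tested. The myrosinase gene TGG2 was not called without the block, with log2 fold changes of -0.83 ± 0.17 (SE; adjusted p = 0.146) in mock-treated and -0.76 ± 0.17 (SE; adjusted p = 0.264) in flg22-treated seedlings, and was called lower in a1a2 with it (-0.83, adjusted p = 0.00868 in the former and -0.74, adjusted p = 0.0211 in the latter).

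MYB34 was lower in a1a2 than in Col-0 after flg22 within each replicate number, with log2 ratios of -0.767, -0.889 and -0.615 for numbers 1, 2 and 3. Over all libraries its genotypes overlapped and it was not called (-0.75 ± 0.29 (SE), adjusted p = 0.997), whereas with the replicate number as a block it was called (-0.75, adjusted p = 0.00266). In mock the difference was -0.33 ± 0.28 (SE; adjusted p = 1), and it was not called with the block either (-0.35, adjusted p = 0.0992).

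CYP79B2 was lower in mock-treated a1a2 (46.2, 49.9 and 71.01 CPM) than in mock-treated Col-0 (73.4, 107 and 115 CPM) in all libraries, but was not called with or without the block (log2 fold change without it -0.82 ± 0.27 (SE), adjusted p = 0.783). After flg22 its levels overlapped between the genotypes (-0.08 ± 0.27, SE). Groups did not overlap between the genotypes for 3 of the 10 genes in mock, IGMT5, CYP79B2 and CYP83B1, against 9.775% of all tested genes. After flg22 they did not overlap for IGMT5 alone, against 7.999%. Without a block, the other genes had log2 fold changes of -0.44 to 0.39 in mock and -0.37 to 0.32 after flg22. All had an adjusted p of at least 0.997 in edgeR without a block, and 95% intervals were as wide as -1.97 to 1.13 for MYB122 in mock. Within each replicate number in mock, CYP79B3, CYP83B1 and MYB51 were lower in a1a2 and IGMT1 was higher, and none of them was called with the block. The adjusted p of CYP79B3 in mock went as low as 0.0304 over the edgeR and DESeq2 alternatives that kept all libraries of the comparison. Its log2 fold change there was -0.46 to -0.42, under the 1.5-fold threshold.

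**Figure D5:**
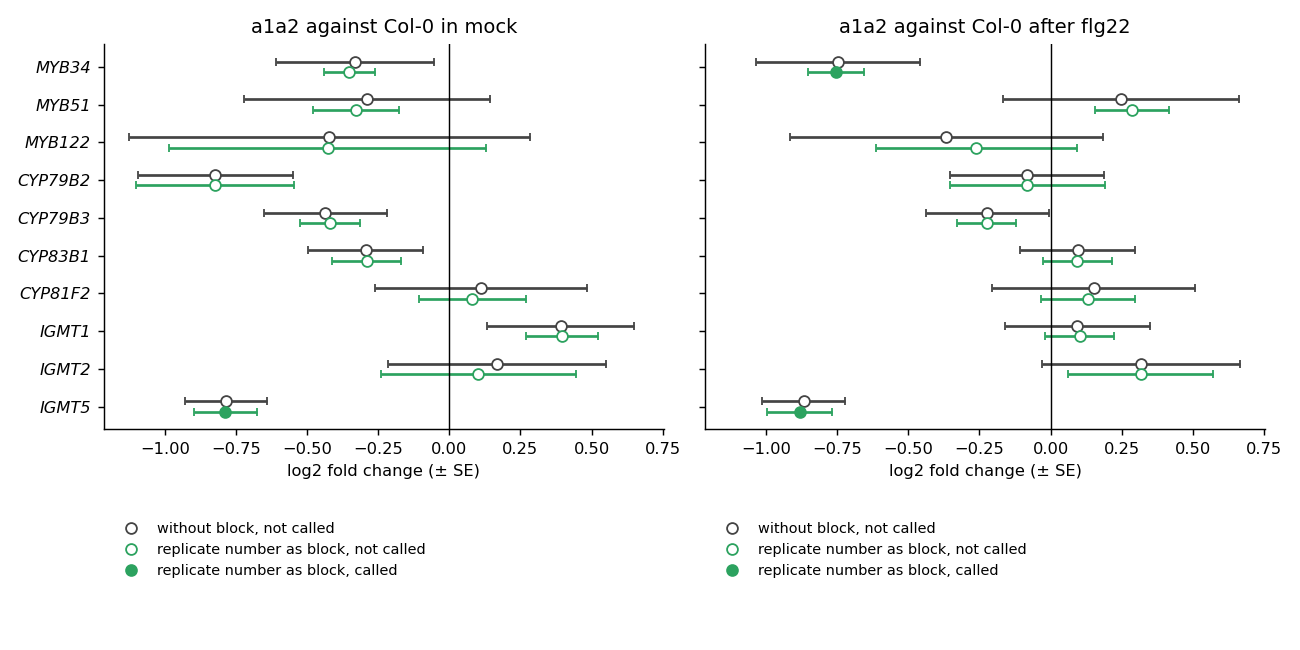
Genotype difference of the 10 genes, as log2 of a1a2 over Col-0, in mock (left) and after flg22 (right), with bars of ± SE from edgeR, without a block (grey) and with the replicate number as a block (green); filled points were called. IGMT5 is near -0.8 in both panels and filled only with the block, and MYB34 is filled only after flg22 with the block.

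The interaction term asked whether the flg22 response itself differed between the genotypes. It called 0 of the 10 genes and 0 of the 20439 tested genes in edgeR, where 0.920% of the genes had an unadjusted p under 0.05, and DESeq2 called 0 as well. The largest estimate was that of CYP79B2, whose rise was higher in a1a2 by 0.74 ± 0.38 (SE) on the log2 scale, with a 95% interval of -0.11 to 1.58 (unadjusted p = 0.0807, edgeR). Within replicate numbers 1, 2 and 3 this difference was 0.41, 1.25 and 0.58. For the strongest responders the interval of the difference was -1.09 to 1.18 for CYP81F2, -0.99 to 1.29 for IGMT2 and -0.78 to 1.85 for MYB51. These intervals come from the fit without a block, in which differences within them could not be told from 0 with 3 replicates. With the replicate number as a block, edgeR also called 0 of the 20439 tested genes for the interaction.

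Across the 12 libraries, the genes whose log2 CPM pattern was most like that of each member, out of 19017 genes averaging 1 CPM or more, were the following. For CYP81F2 they were AT3G15356 (Pearson r = 0.999) and the resistance gene RPM1 (0.999), for IGMT2 AT1G56060 (0.998) and the receptor kinase gene PEPR1 (0.998), for IGMT1 AT2G25297 (0.996) and LAZ5 (0.996), and for MYB51 AT1G63350 (0.999) and AT5G18490 (0.998). For CYP83B1 they were MEK1 (0.993), a MAP kinase kinase gene, and AT3G51450 (0.993), and for MYB122 bHLH104 (0.993) and VTC5 (0.992). CYP79B2 was most like APK2 (0.983), the APS kinase gene named above, and AT2G26390 (0.978), and CYP79B3 most like AT3G07720 (0.979) and GLP5 (0.954). MYB34 was most like GSTF11 (0.966) and MYB28 (0.963), a glutathione S-transferase gene and the regulator of aliphatic glucosinolates. IGMT5 was most like GolS1 (0.945) and CYP71A19 (0.938). All points share the 2 treatments and the depth of their library, so these values describe a common pattern and carry no p.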

How the data were processed

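The authors deposited 1 table of expected counts per gene, estimated and not normalised, with group averages and gene descriptions that were not used here. According to the methods of the study, paired reads were filtered with SOAPnuke and aligned with HISAT, and the submitters' processing notes name the build TAIR10 and DESeq2; the counting tool and gene models are not given in the sources used here. Fractional values made up 7.5% of entries and were rounded. All 23739 Entrez identifiers matched a RefSeq locus of TAIR10.1.

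Counts were filtered with filterByExpr, which kept 20439 genes with 99.97% of counts, and normalised by TMM. A quasi-likelihood model (edgeR 4.0.16, R 4.3.3) with a mean for each group was fitted over the 12 libraries together and tested two-sided, with Benjamini-Hochberg adjustment over all tested genes. The thresholds of adjusted p under 0.05 and 1.5-fold are those of the study (for the interaction, adjusted p alone). SE is the log2 fold change divided by the square root of F, and 95% intervals use the t distribution. The comparisons share libraries. Log2 CPM used a prior count of 2. Code was tested on simulated data. P-values measure the spread between pools of seedlings.

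The deviations of same-numbered replicates from their group means correlated in every pair, with r of 0.22 to 0.66 over 20439 genes (other pairs -0.55 to 0.06). Deviations within a group sum to 0, so the low values of the other pairs are no separate evidence. The pairing of samples by replicate number comes from this check, not from the labels. It was used only in the fits with the replicate number as a block and in the comparisons within replicate numbers. The main fit had no block, so its calls, standard errors, intervals and list counts leave the pairing out. The alternatives tried were RLE size factors, library size alone, no filter, the replicate number as a block, DESeq2 1.42.0 with and without the block, a test against 1.5-fold, IGMT1 to IGMT4 summed, only the 6 libraries of a comparison, and leaving out each library.

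The 10 genes, the other lists and the rules were chosen with earlier results of these data known. Named beside the 10 genes were list members called in a comparison, at most the 3 with the largest change after flg22 in Col-0 and the 3 with the smallest p between genotypes per list, and the 2 genes most like each member in pattern; members named beyond these (TGG1, PYK10, CYP81F1, PAI1 to PAI3 and others) were added after their values were seen. Lengths, promoters and identities (Biopython 1.88, over aligned coding bases) came from the longest annotated transcript in TAIR10.1.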

Additional observations from a re-analysis of the deposited data

How the results depend on the processing

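After flg22, the 8 genes called in a1a2 were called in every alternative, with IGMT1 and IGMT2 as 1 feature where the IGMTs were summed. In Col-0 the call of MYB34 was lost in the settings named above, and those of the other 7 were kept. Against Col-0 in mock, the number called was 0 in the fit without a block, 1 (IGMT5) with the replicate block, in DESeq2 and in DESeq2 with the replicate block, and 0 to 1 when single libraries were left out. After flg22 it was 0, 1 with RLE or DESeq2 (IGMT5; RLE adjusted p = 0.0497), 2 with the replicate block or DESeq2 with the replicate block (IGMT5 and MYB34), and 0 to 1 when single libraries were left out. The pairing by replicate number changed no other call of the 10 genes. It raised the genes called between genotypes over the whole table from 34 to 196 in mock and from 28 to 169 after flg22, and DESeq2 called 103 and 82; the cause was not tested. Scaling to library size alone moved CYP79B3 in Col-0 from 0.15 to -0.10 after flg22, which was not called either way. DESeq2 with the replicate block called 4 genes for the interaction, none of them among the 10.

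When single libraries were left out, some estimates that were not called changed sign: CYP79B3 after flg22 in Col-0 (range -0.09 to 0.26). Between genotypes in mock these were IGMT2 (-0.25 to 0.50), CYP81F2 (-0.30 to 0.46) and MYB51 (-0.54 to 0.05). After flg22 they were MYB122 (-0.81 to 0.43), CYP79B2 (-0.26 to 0.20), MYB51 (-0.01 to 0.60), CYP83B1 (-0.08 to 0.27), CYP81F2 (-0.02 to 0.34) and IGMT1 (-0.11 to 0.27). For the interaction they were MYB122 (-0.39 to 0.85), CYP81F2 (-0.31 to 0.45), IGMT2 (-0.19 to 0.57) and IGMT5 (-0.28 to 0.03). The lowest counts of the 10 genes were those of MYB122, 16 to 32 per mock-treated library, and its standard errors were the largest in each comparison.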
